A study of Arabidopsis thaliana with 6 samples.

Results

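The serine carboxypeptidase-like (SCPL) genes of Arabidopsis were followed in rosettes of the catalase mutant cat2-2. Members were the probe sets that name a single gene whose symbol is SCPL with a number. This gave 29 of 13350 genes that have a probe set of their own name, with 1 probe set each, plus 1 probe set shared by SCPL36 and SCPL37. The gene table used for names holds 51 SCPL genes in all. The rule uses names and no measured value.

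The measurements come from 6 Affymetrix ATH1 arrays, which read short probes near the 3' end of transcripts. All plants were cat2-2 in the Col-0 background, a mutant of the main leaf catalase, which breaks down the hydrogen peroxide that photorespiration forms in peroxisomes. In the treated group, 3 biological replicates were sampled at 22 days of age, after 24 h in which the plates had been sealed with parafilm against gas exchange and kept in continuous light, a regime the submitters name photorespiratory conditions. In the untreated group, 3 biological replicates were sampled at 0 h and 21 days of age, from plates under a cycle of 16 h light and 8 h dark. Each replicate pooled at least 15 rosettes grown on sucrose medium, on plates that also carried shr-6 cat2-2 plants, which are not analysed here. No wild type or untreated plants of 22 days are among the arrays used, so sealing, continuous light and a day of age cannot be told apart, nor whether catalase matters for a difference.

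SCPL proteins share the fold and the catalytic serine, aspartate and histidine of serine carboxypeptidases. They carry a signal peptide and enter the secretory pathway, and many reach the vacuole or the cell wall. Some are peptidases that trim the carboxyl end of proteins and peptides, while others have become acyltransferases that take an acyl group from a glucose ester. SNG1 (SCPL8) makes sinapoylmalate, a leaf sunscreen, and SNG2 (SCPL19) makes sinapoylcholine in seeds, and BRS1 (SCPL24) is known for restoring growth in a weak brassinosteroid receptor mutant. These genes, like SCPL9, SCPL10, SCPL13 and SCPL17, are among 19 family members that were tied to no probe set through the tables used and are not analysed here. For most of the genes below no substrate is established, and where a role is known it is given.

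Values are RMA levels on the log2 scale, with array medians from 6.22 to 6.27. A fold change is treated over untreated with n = 3 arrays per group, ± after a log2 difference is its standard error (SE), and each adjusted p is that of the limma fit across all 22746 probe sets (Benjamini-Hochberg), read at a threshold of 0.05. The percentile of a level is the place of a probe set's mean over the 6 arrays among all probe sets. Probe sets differ in how brightly they bind, so a percentile describes the probe set and does not order genes by abundance. The labelled tissue fits its leaf markers: 7 measured leaf photosynthesis genes lay at percentiles 99.1 to 100.0. Their means were 12.1 to 14.4 in treated and 12.2 to 14.2 in untreated rosettes. Of 6 root genes listed, 2 were measured by name, the root hair genes EXPA7 and EXPA18, at percentiles 25.8 and 39.6. These had means of 4.49 and 5.27 in treated and 4.46 and 5.53 in untreated rosettes. No flower, seed or vascular marker was measured by name. Of the leaf genes 4 fell and 3 did not pass, and of 3 guard cell lineage genes SPCH fell (log2 -0.49; adjusted p = 0.000643) while MUTE and FMA did not pass. Of all probe sets 22.2% fell, and 32.9% of those above the 90th percentile of level. The part of these in the results below was not tested.

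After the treatment, transcripts of SCPL27, SCPL50 and SCPL26 were 2.75-fold, 2.24-fold and 2.01-fold lower, and SCPL46, SCPL45, SCPL29 and SCPL25 were 1.90-fold to 1.51-fold lower. Smaller decreases were measured for SCPL42, SCPL20, SCPL35 and SCPL23. In the other direction SCPL31 was 1.29-fold and SCPL48 1.24-fold higher, and no member rose by 1.5-fold, a class that holds 8.74% of all probe sets. Of 29 members, 11 fell and 2 rose, while 16 did not pass the threshold. The share called in either direction was 44.8% of members, near the 41.7% of all probe sets. These shares pool dim and bright probe sets, and the calls are given by level below. The calls divided unequally: 37.9% of members fell, beside 22.2% of all probe sets, and 6.90% rose, beside 19.4%. At least 1.5-fold lower were 7 members, a class that holds 9.56% of all probe sets. The median log2 difference was -0.13 over the 29 members and -0.007 over all probe sets. No test was made of the family as a whole. RNA came from whole rosettes, so fewer cells of a type and less RNA per cell cannot be told apart.

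**Figure D1:**
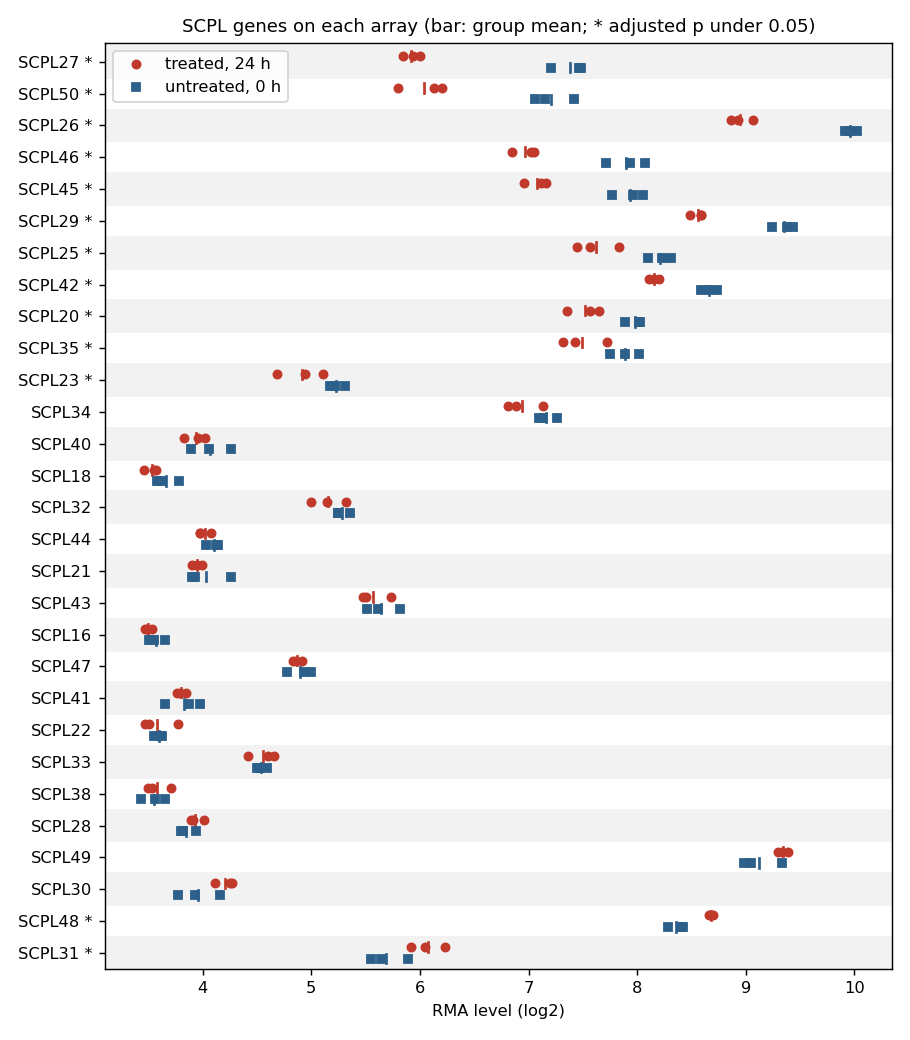
RMA level (log2, horizontal axis) of each of the 29 SCPL genes on each array. Circles are the 3 treated arrays, squares the 3 untreated arrays, short bars the group means, and an asterisk marks an adjusted p under 0.05. Genes run from the largest decrease (SCPL27, log2 -1.46) at the top to the largest increase (SCPL31, log2 0.37) at the bottom.

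SCPL27 had the largest change of the family. It stood at 5.84, 6.0 and 5.94 in treated rosettes and at 7.21, 7.46 and 7.48 in untreated rosettes. The groups lay 1.22 log2 units apart at their nearest arrays, many times the SD within groups, 0.08 in treated and 0.15 in untreated rosettes. The difference was log2 -1.46 ± 0.09 (adjusted p = 2.49e-07), at percentile 1.6 of the log2 differences of all probe sets.

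SCPL50 had levels of 5.80, 6.13 and 6.20 in treated rosettes and of 7.06, 7.42 and 7.15 in untreated rosettes. All 3 treated arrays were lower, with treated replicate 1 the lowest, and the difference was log2 -1.17 ± 0.12 (adjusted p = 1.31e-05). Its spread between replicates was among the widest of the family, with SDs of 0.21 and 0.19 in treated and untreated rosettes.

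SCPL26 had the highest level percentile of the members, 90.4. Its levels were 8.93, 9.07 and 8.86 in treated rosettes and 9.95, 10.02 and 9.91 in untreated rosettes. The groups were separated by 0.84, and the difference was log2 -1.01 ± 0.08 (adjusted p = 1.95e-06). A decrease of at least 2-fold was called for these 3 members, and for 3.89% of all probe sets.

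SCPL46 and SCPL45 gave decreases of close to the same size. SCPL46 stood at 7.02, 6.85 and 7.05 in treated rosettes and at 7.71, 8.07 and 7.93 in untreated rosettes (log2 -0.93 ± 0.10; adjusted p = 1.92e-05). SCPL45 stood at 7.16, 7.11 and 6.96 in treated rosettes and at 7.77, 8.05 and 7.96 in untreated rosettes (log2 -0.85 ± 0.09; adjusted p = 1.95e-05). In both genes every treated array was lower, by at least 0.66 and 0.61. They lie on different chromosomes, SCPL46 on 2 and SCPL45 on 1, and are not neighbours.

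SCPL29 gave 8.59, 8.49 and 8.59 in treated rosettes and 9.24, 9.43 and 9.38 in untreated rosettes. Its replicates were tight, with SDs of 0.06 and 0.09, and the difference was log2 -0.79 ± 0.08 (adjusted p = 1.03e-05). SCPL25 gave 7.57, 7.83 and 7.45 in treated rosettes and 8.23, 8.31 and 8.10 in untreated rosettes. The gap between its groups was narrower at 0.27, and the difference was log2 -0.60 ± 0.10 (adjusted p = 0.000684).

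Of the smaller decreases, that of SCPL42 was the most even. Its levels were 8.15, 8.20 and 8.11 in treated rosettes and 8.73, 8.59 and 8.66 in untreated rosettes (log2 -0.51 ± 0.08; adjusted p = 0.000213). SCPL20 had 7.35, 7.57 and 7.65 in treated rosettes and 7.89, 8.03 and 8.02 in untreated rosettes (log2 -0.45 ± 0.09; adjusted p = 0.00207). For both genes the groups did not overlap, with gaps of 0.40 and 0.23.

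SCPL35 and SCPL23 passed the threshold by little. SCPL35 had 7.32, 7.43 and 7.72 in treated rosettes and 7.75, 8.02 and 7.89 in untreated rosettes, so treated replicate 3 nearly reached untreated replicate 1 (log2 -0.39 ± 0.11; adjusted p = 0.0129). Its call was lost without treated replicate 1 (log2 -0.31; adjusted p = 0.0609) or treated replicate 2 (log2 -0.37; adjusted p = 0.0518). It was also lost with the arrays anchored on the brighter poly(A) spikes (log2 -0.24) or on the hybridization controls (log2 -0.29), and without moderation. SCPL23 had 5.11, 4.68 and 4.94 in treated rosettes and 5.22, 5.31 and 5.17 in untreated rosettes, with a gap of 0.06 (log2 -0.32 ± 0.11; adjusted p = 0.0297). That call was lost without treated replicate 2 (log2 -0.21) or 3 (log2 -0.34), without untreated replicate 1 (log2 -0.33) or 2 (log2 -0.28), and under each other scaling of the arrays that was run.

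The members that rose did so by less. SCPL48 stood at 8.66, 8.67 and 8.70 in treated rosettes and at 8.40, 8.28 and 8.42 in untreated rosettes. The treated arrays were nearly identical and all higher (log2 0.31 ± 0.08; adjusted p = 0.00579). SCPL31 stood at 6.23, 6.05 and 5.92 in treated rosettes and at 5.64, 5.55 and 5.89 in untreated rosettes. Its groups were parted by 0.03 (log2 0.37 ± 0.11; adjusted p = 0.0164), and the call was lost without treated replicate 1 (log2 0.29; adjusted p = 0.0754), untreated replicate 1 (log2 0.35; adjusted p = 0.0521) or untreated replicate 2 (log2 0.30; adjusted p = 0.0630).

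SCPL49, which encodes a vacuolar carboxypeptidase named carboxypeptidase Y after its yeast counterpart, was measured by a probe set at percentile 88.7. It gave 9.33, 9.30 and 9.39 in treated rosettes and 8.98, 9.05 and 9.33 in untreated rosettes. Untreated replicate 3 lay among the treated arrays, and the log2 difference of 0.22 (95% interval 0.004 to 0.43) did not pass after adjustment (adjusted p = 0.0987). It passed without that array (log2 0.32; adjusted p = 0.0117), and likewise when anchored on all poly(A) spikes (log2 0.27; adjusted p = 0.0346), on the brighter spikes (log2 0.37; adjusted p = 0.0062) or on the hybridization controls (log2 0.32; adjusted p = 0.0495). SCPL34, at 6.81, 7.13 and 6.88 in treated rosettes and 7.13, 7.10 and 7.26 in untreated rosettes, did not pass (log2 -0.23 ± 0.10; adjusted p = 0.0850), though it did without treated replicate 2 (log2 -0.32; adjusted p = 0.0177) and with array weights (log2 -0.26; adjusted p = 0.0488).

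Most calls fell on members with a level in the upper part of the array, where calls were also more frequent over all probe sets. Of 13 members whose mean lay above the median probe set, 10 fell, 1 rose (SCPL48) and 2 did not pass (SCPL34 and SCPL49). The mean is taken over both groups, and SCPL27 and SCPL50 passed the median through their untreated levels, their treated means of 5.92 and 6.04 being below the treated median of 6.23. Without these, a setting chosen after seeing the data, 8 of 11 fell. Among all probe sets above the median, 31.3% fell and 30.3% rose. Of the 16 members at or below the median, 1 fell (SCPL23), 1 rose (SCPL31) and 14 did not pass, where, of all such probe sets, 13.2% fell and 8.56% rose. The groups did not overlap for 12 members in the lower and 2 in the higher direction, beside 26.7% and 24.0% of all probe sets. The dim member SCPL18 was the one non-overlapping gene that did not pass the threshold (log2 -0.13, with a gap of 0.02; adjusted p = 0.238).

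**Figure D2:**
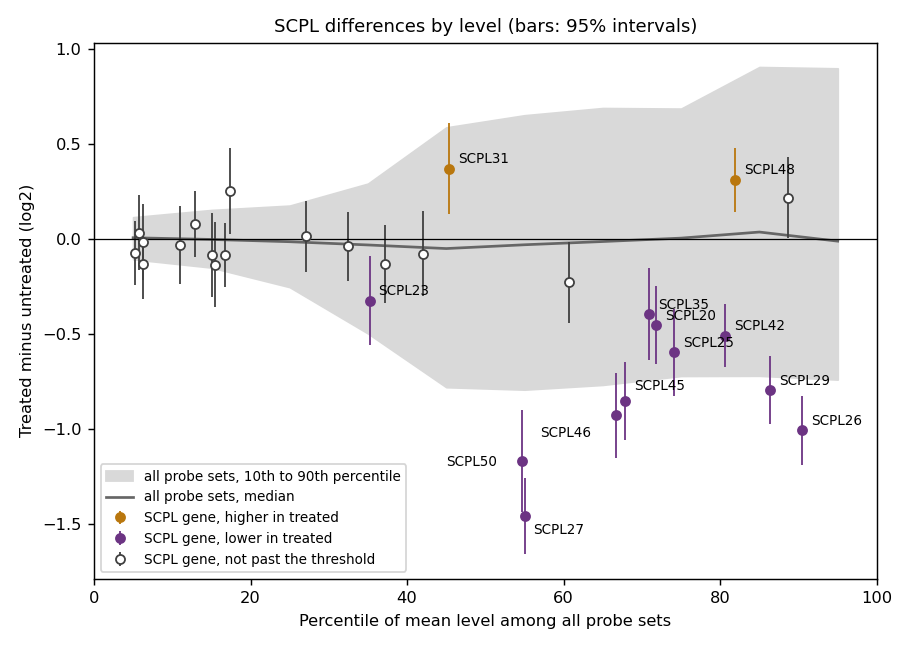
Treated minus untreated log2 difference (vertical axis) against the percentile of the mean level among all probe sets (horizontal axis). Points are the 29 SCPL genes with 95% intervals, filled where the adjusted p was under 0.05. The grey band is the 10th to 90th percentile of all probe sets in bins of 10 percentiles of level. SCPL27, SCPL50, SCPL46, SCPL45, SCPL29 and SCPL26 lie below the band, as does the dim SCPL18, and SCPL30 lies above it.

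The balance of directions was read against the scaling of the arrays. Anchoring the arrays on bacterial poly(A) spikes raised every difference by 0.055 (27 spike sets) or by 0.152 (the 13 brighter than the median probe set), and anchoring on the hybridization controls raised it by 0.105. In these settings 10, 9 and 9 members fell and 4, 5 and 4 rose, so 28.6%, 35.7% and 30.8% of the called members were higher, against 15.4% in the deposited values. Over all probe sets the share of calls that were higher was 54.5%, 69.0% and 60.1%, against 46.6%. SCPL27, SCPL50, SCPL26, SCPL46, SCPL45 and SCPL29 fell in each of the alternatives run.

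For 10 members the probe set lay below the 20th percentile: SCPL16, SCPL18, SCPL21, SCPL22, SCPL28, SCPL30, SCPL38, SCPL40, SCPL41 and SCPL44. Their levels on single arrays ran from 3.43 to 4.27 over both groups. The deposited values hold no detection calls, so whether these transcripts were above background was not tested. None of the 10 passed the threshold, and of all probe sets below that percentile 4.95% did, so no call among 10 is what such probe sets mostly give. Their differences ran from log2 -0.14 to 0.26, the highest in SCPL30. SCPL30 passed without untreated replicate 3 (log2 0.36; adjusted p = 0.0132), and also under equal medians, each control anchor, and trend and robust moderation, with adjusted p from 0.0042 to 0.0483. SCPL28 passed with the arrays anchored on the brighter poly(A) spikes (log2 0.23; adjusted p = 0.0424). No 95% interval among the 10 reached beyond 0.48 in either direction. These intervals bound the measured difference of the probe set.

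Among these dim members, SCPL41, which genetic work has linked to membrane lipid metabolism, gave 3.76, 3.79 and 3.85 in treated rosettes and 3.98, 3.87 and 3.65 in untreated rosettes. The groups overlapped fully (log2 -0.03, 95% interval -0.24 to 0.17; adjusted p = 0.840). SCPL16 stands in a run of genes on chromosome 3 with SCPL17, known from acylated glucosinolates of seeds, and with SCPL14 and SCPL15. It gave 3.53, 3.47 and 3.49 in treated rosettes and 3.51, 3.55 and 3.65 in untreated rosettes (log2 -0.07; adjusted p = 0.511). The probe set shared by SCPL36 and SCPL37 gave 3.71, 3.79 and 3.77 in treated rosettes and 3.90, 3.71 and 3.89 in untreated rosettes (log2 -0.07; adjusted p = 0.525), and its signal cannot be divided between these adjacent genes.

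The remaining 4 members had probe sets between percentiles 27.1 and 42.0 and overlapping groups. SCPL32 and SCPL43 had means of 5.15 and 5.57 in treated rosettes and 5.28 and 5.64 in untreated rosettes. SCPL47 and SCPL33 had means of 4.87 and 4.56 in treated rosettes and 4.90 and 4.54 in untreated rosettes. Their log2 differences ran from -0.13 to 0.02, with adjusted p from 0.312 to 0.911.

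In 3 pairs of neighbouring family members, 1 gene was called and the other was not. The sets naming SCPL36, SCPL37 and SCPL39, also adjacent genes, did not pass. SCPL26 and SCPL28 are adjacent genes on chromosome 2. SCPL26 fell, while SCPL28 had means of 3.93 in treated and 3.85 in untreated rosettes (log2 0.08, 95% interval -0.09 to 0.25; adjusted p = 0.476). SCPL22 and SCPL23 are likewise adjacent on chromosome 2. SCPL23 fell by little and SCPL22 had means of 3.58 in treated and 3.60 in untreated rosettes (log2 -0.02, 95% interval -0.22 to 0.19; adjusted p = 0.924). On chromosome 5, SCPL42 lies 3 genes from SCPL41, and SCPL42 fell where SCPL41 did not pass. The probe sets of the genes that fell, SCPL26, SCPL23 and SCPL42, lay at percentiles 90.4, 35.2 and 80.6. Those of SCPL28, SCPL22 and SCPL41 lay at percentiles 12.9, 6.3 and 11, and below the 20th percentile only 4.95% of all probe sets were called. The difference between the neighbours' changes was not tested.

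**Figure D3:**
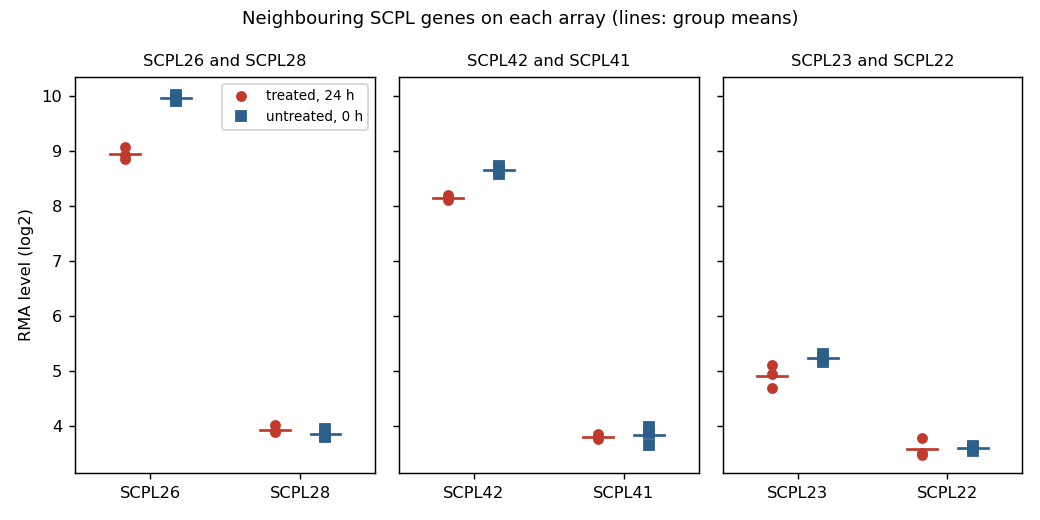
RMA level (log2, vertical axis) of 3 pairs of neighbouring SCPL genes on each array. Circles are treated arrays, squares untreated arrays and lines group means. In each panel the left gene fell and the right gene, with arrays between 3.47 and 4.01, did not pass the threshold.

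The pathway that supplies glucose esters to the acyltransferase type of SCPL protein was set beside the family. The acyltransferase genes SNG1 and SNG2 are not among the members. Which of the members are of this type was not examined, so the list is not matched to the genes that fell. Of 22 genes listed, 6 were measured by name, of which 1 rose and 3 fell, with a median log2 difference of -0.26. Unnamed probe sets may read the other listed genes, which were not examined. Over all probe sets 19.4% rose and 22.2% fell, with a median of -0.007, and 6 genes are too few to set the list apart. UGT84A3, a glucosyltransferase that makes glucose esters of hydroxycinnamic acids, gave 9.46, 9.48 and 9.50 in treated rosettes and 8.27, 7.54 and 8.20 in untreated rosettes, where replicate 2 stood lowest. It was 2.78-fold higher (log2 1.47 ± 0.16; adjusted p = 1.66e-05). Its close homologues UGT84A1 (log2 0.04; adjusted p = 0.699) and UGT84A4 (log2 -0.12; adjusted p = 0.456) did not pass. HCT, the hydroxycinnamoyl transferase of the shikimate ester route, fell 1.54-fold (log2 -0.62 ± 0.09; adjusted p = 0.000107). ALDH2C4, the dehydrogenase that makes sinapic and ferulic acid, had means of 8.46 in treated and 9.02 in untreated rosettes (log2 -0.56 ± 0.10; adjusted p = 0.000968). CCR2, a cinnamoyl-CoA reductase, fell 1.32-fold (adjusted p = 0.00896).

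Of other proteases of the vacuole and secretory pathway, 13 of 24 listed loci had a probe set assigned to them. Unnamed probe sets may read the others. Of the 13, 4 rose and 4 fell, with a median log2 difference of 0.11. Of all probe sets 19.4% rose and 22.2% fell, and of those above the median level 30.3% and 31.3%, so these counts do not set the list apart. The strongest change was in BETA-VPE, a vacuolar processing enzyme that cleaves after asparagine and is best known from seeds. Its levels were 5.77, 5.87 and 5.94 in treated rosettes and 7.91, 8.14 and 7.69 in untreated rosettes, 4.16-fold lower (log2 -2.06 ± 0.11; adjusted p = 7.99e-08). GAMMA-VPE, the processing enzyme of vegetative tissues, gave 10.81, 10.74 and 10.57 in treated rosettes and 10.08, 9.68 and 10.05 in untreated rosettes. It was 1.71-fold higher (log2 0.77 ± 0.11; adjusted p = 0.000180), in the direction opposite to most called SCPL genes. The aspartic protease gene APA1 was 1.17-fold higher (adjusted p = 0.0327), while ALPHA-VPE (log2 0.22; adjusted p = 0.161) and DELTA-VPE (log2 0.11; adjusted p = 0.455) did not pass. The other 8 loci, of which 2 rose and 3 fell, carry no gene name in the tables used, the largest change among them being that of AT1G02300 (log2 -1.15 ± 0.10; adjusted p = 1.94e-06).

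**Figure D4:**
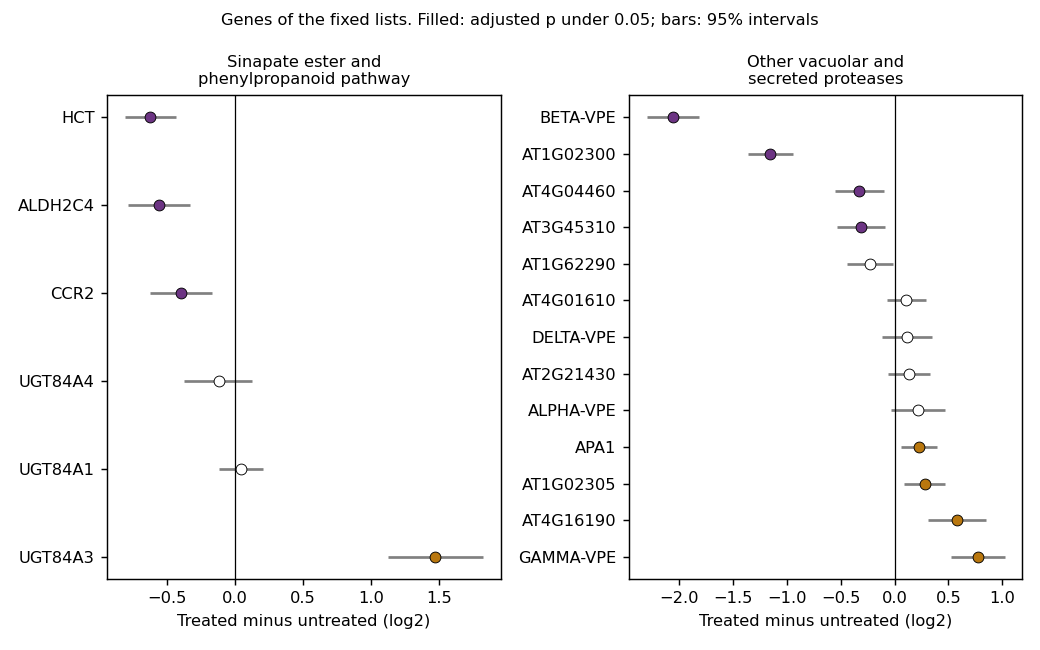
Treated minus untreated log2 difference (horizontal axis) with 95% intervals for the measured genes of the sinapate ester and phenylpropanoid pathway (left) and of other vacuolar and secreted proteases (right). Filled points passed an adjusted p of 0.05. UGT84A3 and GAMMA-VPE lie furthest to the right, HCT and BETA-VPE furthest to the left.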

How the data were processed

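Per the submitters' processing notes, the authors made the deposited log2 levels per probe set with RMA, whose version is not stated. The sources used here do not say which arrays were normalized together. The titles gave the groups. Replicates are labelled biological, and what else they share is not stated. Of 22810 probe sets, 64 control sets were kept apart and 22746 tested, dim ones included. Genes were named through the platform table of the array, updated from RefSeq (TAIR10.1), whose coordinates served only for gene order. Of the tested sets, 13513 named 1 gene, 503 several, and 8730 were unnamed.

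Differences were fitted with limma 3.58.1 in R 4.3.3 (lmFit, eBayes, treated minus untreated, two-sided, no covariates). The median SE was 0.087 and precision is limited by having only 3 arrays in a group. The steps were tested on simulated data. Members, gene lists and alternatives were chosen with earlier results of these data known. Per-array values were given by rule for the 12 members of largest change, the 2 with the highest mean, members with roles known from genetics and the shared set. SCPL48, SCPL34 and SCPL16 were added after their values were seen. From each list, the rule named the 2 largest called changes and the largest in the other direction, and other listed genes were named after their values were seen. The 19 alternatives cover the replicate number as a block, filters, scaling, moderation, weights, thresholds, the choice of probe set and leaving out each array.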

Additional observations from a re-analysis of the deposited data

How the results depend on the processing

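With 3 arrays per group, the median SE was 0.087. The calls of SCPL23, SCPL31 and SCPL35 were lost when certain single arrays were left out, while those of the other called members, the small change of SCPL48 among them, were kept. Of 13 called members, 6 kept their call and direction in every alternative run. SCPL20, SCPL25, SCPL42 and SCPL48 kept the call in 18 of 19 and lost it only when changes beyond log2 0.5 were asked for. The differences of SCPL20 (log2 -0.45) and SCPL48 (log2 0.31) were below that size. SCPL35 kept its call in 12 of 19, SCPL31 in 13 of 19 and SCPL23 in 5 of 18. The count of members that rose was 4 with arrays anchored on all poly(A) spike sets, 5 on the brighter spike sets and 4 on the hybridization controls. It was 1 without moderation, 1 at an adjusted p of 0.01 and 1 to 4 when single arrays were left out. When limma's treat asked for log2 changes beyond 0.5, 0 members rose, 6 fell and 2699 probe sets changed. Members that fell numbered 9 to 11 in the other alternatives. Same-numbered replicates had deviations from their group means with correlations of 0.070, -0.064 and 0.001. With 3 arrays per group, these cannot show whether the numbers pair the samples. With the replicate number as a block, 2 members rose, 11 fell and 9190 probe sets changed. With 1 probe set per member, taking the dimmest set repeated the main fit. This setting kept every call by construction and is counted among the alternatives above. Differences near 0 changed sign. SCPL22 was 0.012 with equal medians, 0.009 with array weights and 0.039 on all spike sets, where SCPL47 was 0.018 and SCPL41 0.023. On the brighter spike sets, SCPL40 was 0.017, SCPL18 0.020, SCPL32 0.022, SCPL44 0.069, SCPL21 0.069, SCPL43 0.076, SCPL16 0.080, SCPL47 0.116, SCPL41 0.121, SCPL22 0.137 and the set of SCPL36 and SCPL37 0.077. On the hybridization controls, SCPL44 was 0.022, SCPL21 0.022, SCPL43 0.029, SCPL16 0.033, SCPL47 0.069, SCPL41 0.074, SCPL22 0.090 and the shared set 0.030. These anchors add a constant to every difference. With single arrays left out, SCPL21 ran from -0.149 to 0.034, SCPL22 from -0.109 to 0.041, SCPL33 from -0.033 to 0.088, SCPL38 from -0.028 to 0.086, SCPL41 from -0.125 to 0.043, SCPL43 from -0.155 to 0.010 and SCPL47 from -0.100 to 0.011.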

Other observations

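A probe set that names SCPL39 together with AT3G56540 stood outside the rule for members, since it does not name several SCPL genes. It gave 3.76, 3.76 and 3.75 in treated rosettes and 3.73, 3.79 and 3.71 in untreated rosettes, at percentile 9.6 of levels (log2 0.01; limma, adjusted p = 0.916). SCPL39 is adjacent to SCPL37 on chromosome 3.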
